A study of Bos taurus with 6 samples.

Results

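Bta-miR-202 and the arms of the miR-22 precursor, bta-miR-22-3p and bta-miR-22-5p, were examined in bovine granulosa cells of dominant and subordinate follicles. They are 3 of 755 mature miRNA names counted in each library, of which 458 had a read in at least 1 library. All 3 names were found in the deposited counts, each under 1 precursor. They were selected on these measurements: bta-miR-22-3p because it stood among the 10 miRNAs with most reads in the preovulatory dominant libraries only, bta-miR-22-5p as its partner arm, and bta-miR-202 as an abundant gonadal miRNA of the dominant follicles. Their levels, ranks, arm use and differences between follicle types are therefore given as a description without a test.

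A miRNA is cut from a hairpin precursor whose arms, 5p and 3p, can each give a mature strand. One strand is loaded into the silencing complex and guides it to partly complementary mRNAs, and the other is usually degraded. MiR-202 is known as a miRNA of the gonads, present in the Sertoli cells of the testis and in ovarian follicles, and its loss in fish impairs egg production. MiR-22 is expressed in many tissues, chiefly from its 3p arm, and is known to repress ESR1, the estrogen receptor alpha. Granulosa cells surround the oocyte and line the follicular antrum, make estradiol from theca androgens and, in the dominant follicle, acquire the receptor for luteinizing hormone. In the RefSeq gene table of the assembly ARS-UCD2.0, MIR22 lies within the span of the gene TLCD2, between PRPF8 and WDR81, and overlaps a further miRNA gene, MIR3600. The counts of bta-miR-3600 were 0 in all 6 libraries, and it is not known whether reads that fit both genes were all counted as bta-miR-22-3p. MIR202 lies next to UTF1, in a span that the table also assigns to SORCS3. The table does not state whether these miRNAs are exonic or intronic.

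Both groups came from the same Simmental heifers, in the second year of life, whose cycles were synchronized with the prostaglandin analogue cloprostenol and the GnRH analogue buserelin and whose ovaries were taken on day 19 after the onset of estrus. Preovulatory dominant follicles were separated from anovulatory subordinate follicles by external diameter, and the protocol gave every animal the same treatment. Granulosa cell RNA was pooled into 3 libraries of each follicle type, and since far fewer dominant than subordinate follicles were collected, a dominant library may hold few follicles and a subordinate one many. The granulosa cells were recovered by centrifugation of follicular contents without a sort. The study checked their identity by PCR for the mRNAs of FSHR (granulosa) and CYP17A1 (theca), which small RNA counts do not hold. It reported strong FSHR bands and weaker CYP17A1 bands, and called the CYP17A1 level very negligible in all samples. In such bulk RNA, fewer cells of a type and less RNA per cell cannot be told apart.

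With 1 value per mature miRNA, the dominant libraries held between 190385 and 311842 reads and the subordinate libraries between 306932 and 364125. Levels are given as reads, as a percentage of those reads, or as CPM after TMM scaling, which sets all libraries to a common total and corrects for their composition. On the TMM scale, 3 reads were worth between 8.86 and 13.9 CPM, and lower values cannot be told from 0. Replicates are pools, intervals cover counting error only, and reads from PCR are not independent molecules.

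On the TMM scale, the level of bta-miR-202 was 3.48 times as high in dominant as in subordinate follicles and nearly constant among the 3 dominant libraries. Its reads numbered 12884, 10079 and 13664 in dominant replicates 1, 2 and 3 and 3920, 4709 and 3484 in the subordinate replicates. All dominant libraries lay above all subordinate libraries, although the dominant libraries were on the whole the smaller ones. After TMM scaling these reads were 45459, 46747 and 43506 CPM in dominant follicles, a mean of 45237 ± 1632 (SD, n = 3). In subordinate follicles they were 11575, 15230 and 12294 CPM, a mean of 13033 ± 1936 (SD, n = 3). The log2 fold change was 1.80 (standard error 0.15), a 3.48-fold difference, and the ratio between single libraries of the 2 groups ran from 2.86 to 4.04.

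Bta-miR-202 took 4.96% of the reads in dominant replicate 1 (95% Wilson interval 4.88 to 5.04%), 5.29% in replicate 2 (5.19 to 5.4%) and 4.38% in replicate 3 (4.31 to 4.45%). In subordinate follicles it took 1.19% (1.15 to 1.22%), 1.29% (1.26 to 1.33%) and 1.14% (1.1 to 1.17%). The groups were separated by far more than counting error, while replicates within the dominant group differed beyond it. The mean share was 4.88 ± 0.461% in dominant and 1.21 ± 0.0806% in subordinate follicles (SD, n = 3 each), a 4.05-fold difference. This is larger than the difference on the TMM scale. The most abundant miRNAs, bta-miR-26a and bta-miR-10b, together took 41.8 ± 4.56% of the subordinate and 30 ± 2.75% of the dominant libraries (SD, n = 3 each).

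By read count bta-miR-202 was the 3rd miRNA in each dominant library, directly below bta-miR-10b, a member of the miR-10 family encoded in the HOX clusters. Directly below it stood bta-let-7a-5p in replicates 1 and 3, with 11607 and 13541 reads, and bta-miR-22-3p in replicate 2. Bta-miR-202 was above bta-let-7a-5p in all 3 dominant libraries, by least in replicate 3. In the subordinate libraries its rank was 17, 14 and 17, directly above bta-miR-30e-5p (3024 reads), bta-miR-30d (4573 reads) and bta-miR-99a-5p (3385 reads), respectively.

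**Figure D1:**
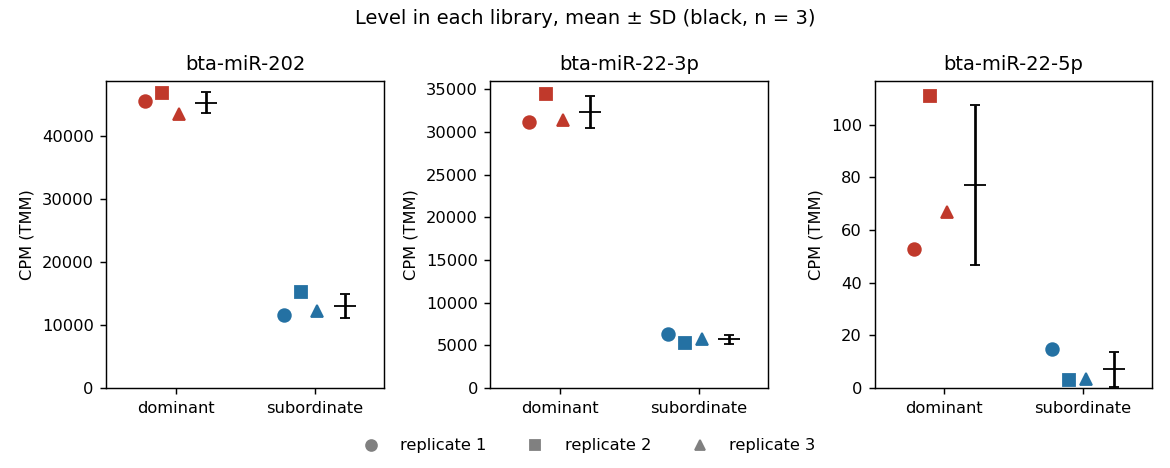
Level of each miRNA in CPM with TMM scaling (vertical axis, linear from 0, a scale of its own for each miRNA) in the 3 dominant (red) and 3 subordinate (blue) libraries, with replicates by symbol and mean ± SD in black. For bta-miR-202 the lowest dominant library (43506) lies above the highest subordinate one (15230), and for bta-miR-22-3p 31144 lies above 6301.

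The 3p arm of miR-22 showed a larger difference. Bta-miR-22-3p had 8827, 7444 and 9860 reads in dominant replicates 1, 2 and 3 and 2134, 1621 and 1621 reads in the subordinate replicates. The groups did not overlap. In dominant follicles the level was 31144, 34525 and 31394 CPM, a mean of 32355 ± 1884 (SD, n = 3). In subordinate follicles it was 6301, 5243 and 5720 CPM, a mean of 5755 ± 530 (SD, n = 3). The log2 fold change was 2.49 (standard error 0.15), or 5.62-fold, with library ratios between 4.94 and 6.59.

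The share of bta-miR-22-3p was 3.4% (95% Wilson interval 3.33 to 3.47%), 3.91% (3.82 to 4%) and 3.16% (3.1 to 3.22%) in the dominant libraries. It was 0.646% (0.619 to 0.674%), 0.445% (0.424 to 0.467%) and 0.528% (0.503 to 0.554%) in the subordinate libraries. Means were 3.49 ± 0.383% and 0.54 ± 0.101% (SD, n = 3 each), respectively, a 6.46-fold difference in share.

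By read count bta-miR-22-3p held ranks 7, 4 and 8 in dominant and 24, 27 and 29 in subordinate replicates 1, 2 and 3. The limit of 10 used to select it fell at bta-miR-143 (7171 reads) in dominant replicate 1, with bta-miR-191 (7016 reads) just outside. In replicate 2 it fell at bta-miR-21-5p (5430 reads), with bta-miR-125a (4991 reads) outside, and in replicate 3 at bta-miR-27b (9596 reads), with bta-miR-186 (7518 reads) outside. Bta-miR-22-3p thus stood closest to that limit in replicate 3, with 9860 reads. In the subordinate libraries the miRNAs at rank 10 had 7865 (bta-miR-21-5p), 7967 (bta-miR-99b) and 7795 reads (bta-let-7i), all far above bta-miR-22-3p. Its order among its neighbours differed between dominant libraries: bta-let-7i was below it in replicate 1 (8790 reads) and above it in replicate 3 (10616 reads), and bta-miR-21-5p was above it in replicate 1 (8991 reads) and below it in replicate 2.

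**Figure D2:**
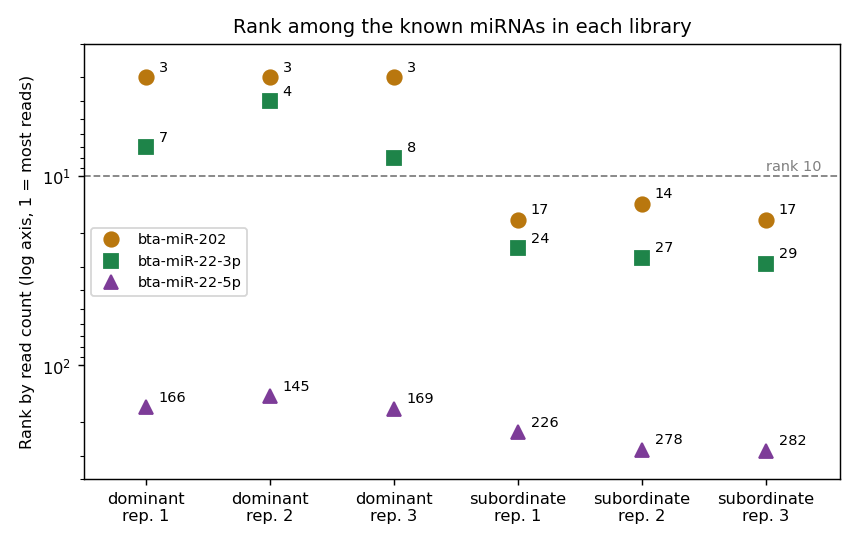
Rank by read count (vertical axis, logarithmic, 1 at the top) of the 3 miRNAs in each of the 6 libraries (horizontal axis), with the number beside each point. Bta-miR-202 and bta-miR-22-3p lie above the dashed line at rank 10 in the dominant libraries only, and bta-miR-22-5p lies between rank 145 and rank 282.

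Bta-miR-202 had more reads than bta-miR-22-3p in all 6 libraries. The number of bta-miR-202 reads per bta-miR-22-3p read was 1.46, 1.35 and 1.39 in dominant and 1.84, 2.9 and 2.15 in subordinate replicates 1, 2 and 3. This ratio was steady in dominant follicles (1.4 ± 0.0542) and higher and more variable in subordinate follicles (2.3 ± 0.549, SD, n = 3 each), without overlap. It does not depend on the scaling of the libraries. Together the 3 miRNAs took 8.36, 9.22 and 7.55% of the reads in the dominant libraries and 1.83, 1.74 and 1.66% in the subordinate ones, means of 8.38 ± 0.833% and 1.75 ± 0.0856% (SD, n = 3 each).

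On the TMM scale, the spread between dominant libraries was small for bta-miR-202 and bta-miR-22-3p. Among the 39 abundant miRNAs, those whose mean read count reached 1000, the median coefficient of variation of CPM was 11.8% in dominant and 14.6% in subordinate follicles. For bta-miR-202 the coefficient was 3.61% in dominant follicles, the 2nd lowest of the 39, and 14.9% in subordinate follicles, close to the median. This order depends on the scaling. The share of bta-miR-202 in the reads was 4.88 ± 0.461% in dominant and 1.21 ± 0.0806% in subordinate follicles (SD, n = 3 each). Relative to its mean, that share varied more in dominant follicles. For bta-miR-22-3p it was 5.82 and 9.21%, respectively.

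The 5p arm of miR-22 was rare in both follicle types. Bta-miR-22-5p had 15, 24 and 21 reads in dominant replicates 1, 2 and 3 and 5, 1 and 1 reads in the subordinate ones. Dominant libraries were higher throughout, and subordinate replicates 2 and 3 were below the level of 3 reads. The level was 52.9, 111 and 66.9 CPM in dominant follicles (77 ± 30.5, SD, n = 3) and 14.8, 3.23 and 3.53 CPM in subordinate follicles (7.18 ± 6.57, SD, n = 3). Summed over libraries, 60 reads stood against 7, a ratio of 9.82 per scaled read with an exact 95% counting interval of 4.48 to 25.5. The log2 fold change was 3.29 (standard error 0.63). Without subordinate replicate 1, which held 5 of the 7 reads, it became 4.33, a fitted value that rests on 1 read in each of the other subordinate libraries and is no bound.

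In every library nearly all miR-22 reads were from the 3p arm. Reads of the 5p arm made up 0.17% of both arms in dominant replicate 1 (95% Wilson interval 0.103 to 0.28%), 0.321% in replicate 2 (0.216 to 0.478%) and 0.213% in replicate 3 (0.139 to 0.325%). In the subordinate libraries they made up 0.234% (0.0999 to 0.546%), 0.0617% (0.0109 to 0.348%) and 0.0617% (0.0109 to 0.348%). The intervals of the dominant and subordinate libraries overlapped. Overlap is no test of a difference in arm use, which was not tested, and the 5p arm had only 60 and 7 reads. One 5p read was counted for 310 to 588 reads of the 3p arm in dominant follicles and for 427 to 1621 in subordinate follicles. The log2 ratio of 5p to 3p, after adding 1 read to each, was -9.11, -8.22 and -8.81 in dominant (-8.71 ± 0.45) and -8.48, -9.66 and -9.66 in subordinate follicles (-9.27 ± 0.69, SD, n = 3 each). Both arms were thus higher in dominant follicles, while their proportion overlapped between the groups.

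By the log2 ratio with 1 read added to each arm, miR-22 was among the most one-sided of the precursors with both arms named. Of 75 pairs of 5p and 3p names, 34 averaged 5 reads or more in the larger arm, and the 3p arm was the larger in 15 of them. Only bta-miR-23b had a lower mean log2 ratio over the 6 libraries (-9.24 ± 0.42, SD) than bta-miR-22 (-8.99 ± 0.60), and its 5p arm had a mean of 0.167 reads, so that its ratio is set by the added read. The next was bta-miR-27a (-6.71 ± 0.82), which like miR-23b belongs to the miR-23, miR-27 and miR-24 clusters. At the other end stood bta-miR-30b (8.87 ± 0.61), bta-let-7a (8.48 ± 0.53) and bta-miR-142 (6.64 ± 0.45), which were counted nearly only from the 5p arm. The smaller arm averaged only 0.5 reads for bta-miR-27a and 0.333 reads for bta-miR-30b and bta-miR-142. With so few reads the ratio is limited by the added read and by the depth of the larger arm. The order of the pairs is therefore partly an order of depth, and the place of miR-22 holds for this ratio only. The arms of bta-miR-22-3p and bta-miR-22-5p are read from names and from 1 precursor, whereas the name bta-miR-202 gives no arm and a partner strand was not analysed here.

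**Figure D3:**
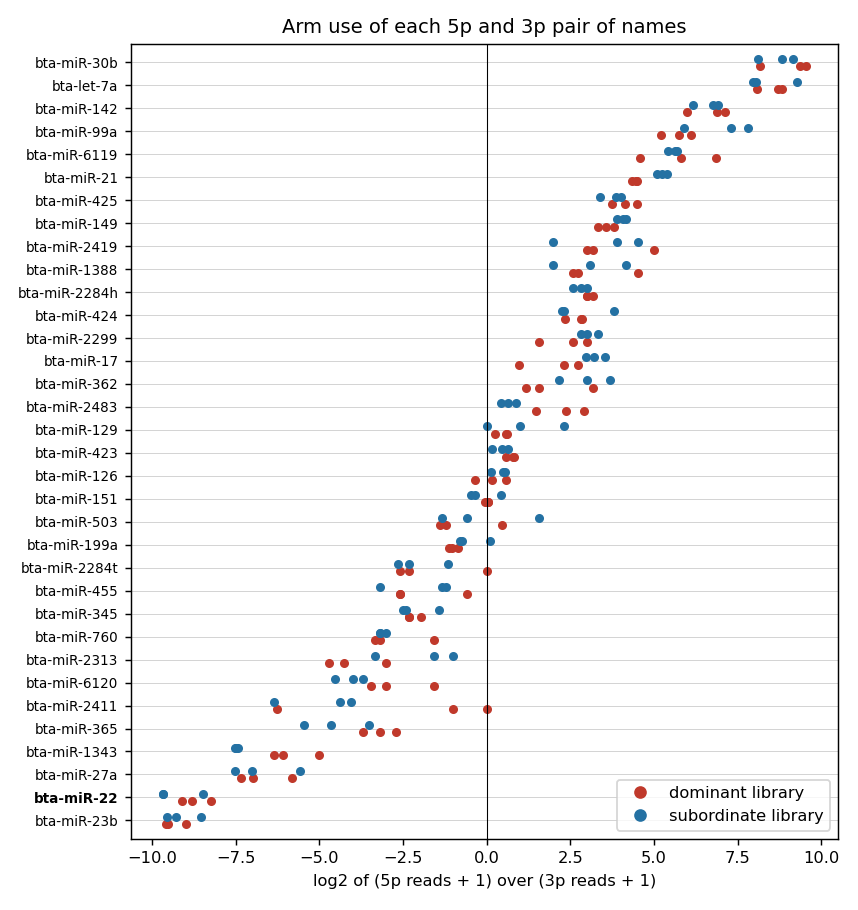
Log2 ratio of 5p to 3p reads after adding 1 (horizontal axis) for the 34 pairs of names whose larger arm averaged 5 reads or more (vertical axis, ordered by mean), 1 point per library, dominant in red and subordinate in blue. The points of bta-miR-22 run from -9.66 to -8.22, and subordinate replicates 2 and 3 share the lowest value.

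Differences larger than those of bta-miR-202 and miR-22 were found for other miRNAs. In edgeR's quasi-likelihood test 42 of 353 miRNAs, or 11.9%, were called higher in dominant follicles and 34, or 9.63%, lower, where a call required a log2 fold change of 1 or more in size, a p of 0.05 or less and a false discovery rate of 0.1 or less. Without a composition factor in the scaling, the numbers were 47 higher and 23 lower. All 3 miRNAs were among those called higher and among the 65 (18.4%) whose dominant libraries all exceeded all subordinate ones (the selection of the 3 used this contrast, so that nothing is read from this count). Ordered by log2 fold change, bta-miR-22-5p was in place 15, bta-miR-22-3p in place 30 and bta-miR-202 in place 41 of 353. The place of bta-miR-22-5p is uncertain, because its subordinate mean of 7.18 CPM lies below the level of 3 reads. Among the 39 abundant miRNAs, whose median log2 fold change was 0.04, bta-miR-22-3p was 4th and bta-miR-202 6th. Above both stood bta-miR-183 (7.06, standard error 0.32) and bta-miR-182 (6.55, 0.32) of one sensory-organ cluster, and the cAMP-responsive bta-miR-132 (5.99, 0.56). Bta-miR-204, an intronic miRNA of a TRPM gene in mammals, had place 5 (2.03, 0.18).

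**Figure D4:**
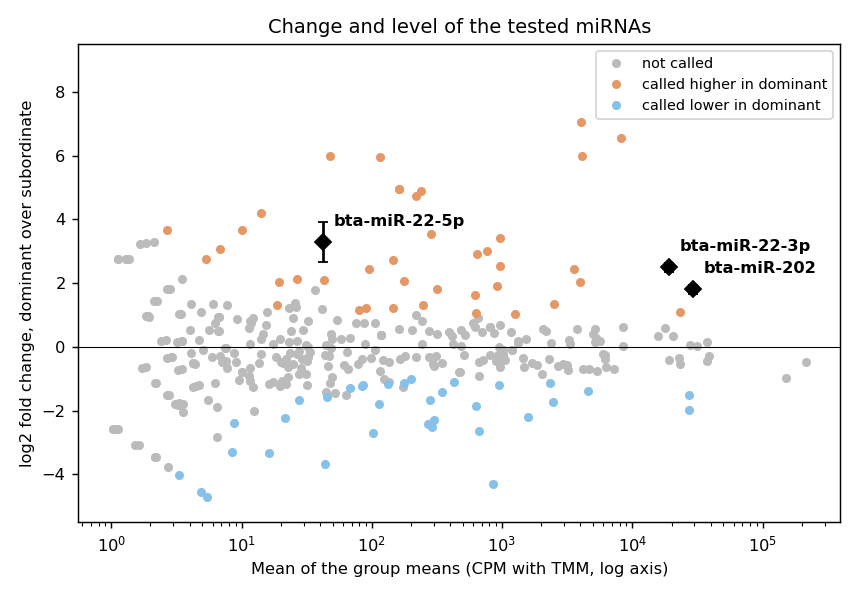
Log2 fold change of dominant over subordinate follicles (vertical axis) against the mean level in CPM (horizontal axis, logarithmic) of the 353 miRNAs tested, with calls in colour. Bta-miR-202, bta-miR-22-3p and bta-miR-22-5p are shown as black diamonds ± standard error, at 1.80, 2.49 and 3.29.

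Markers of other cells were compared with these levels, since follicular contents can hold blood and wall cells. Of the 7 blood cell miRNAs, 6 could be tested, and bta-miR-451 and bta-miR-486, both of red blood cells, were called higher in dominant follicles (log2 fold change 3.00 and 2.45, standard error 0.86 and 0.72, adjusted p = 0.0414 and 0.0418 by edgeR's quasi-likelihood test). These calls were lost without dominant replicate 1 (2.42 and 1.74), dominant replicate 2 (2.88 and 2.48) or subordinate replicate 3 (2.73 and 2.21). The other 4 blood miRNAs tested were not called. Their log2 fold changes were 1.33 (bta-miR-144), 0.53 (bta-miR-142-5p), 0.08 (bta-miR-150) and -0.48 (bta-miR-223). Of all miRNAs tested, 11.9% were called higher. The summed share of the 7 ran from 0.131 to 1.55% in dominant and from 0.126 to 0.208% in subordinate libraries. Bta-miR-451 was at 2265 and 1725 CPM in dominant replicates 1 and 2 but at 121 CPM in replicate 3, within the subordinate range of 98.8 to 224. In that same replicate 3 bta-miR-202 was at 43506 CPM and bta-miR-22-3p at 31394 CPM, levels close to those of the other two dominant libraries. Without dominant replicates 1, 2 or 3 the log2 fold change of bta-miR-202 was 1.79, 1.81 and 1.81 and that of bta-miR-22-3p 2.52, 2.47 and 2.49. Whether blood cells contributed to the levels of bta-miR-202 and bta-miR-22-3p was not tested.

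Neither arm of bta-miR-126, the endothelial miRNA, was called (log2 fold change -1.25 and -1.09, standard error 0.50 and 0.43, adjusted p = 0.113 and 0.105), and their summed share was at most 0.0319% in dominant and 0.0498% in subordinate libraries. Of 5 stromal and theca miRNAs, bta-miR-214 was called lower (-1.20, standard error 0.35, adjusted p = 0.0418; lost with scaling by total count, -0.99, and without dominant replicate 1, -1.12, or subordinate replicate 3, -0.96) and 4 were not called, of which bta-miR-199a-5p was called lower without subordinate replicate 1 (-1.20). With all libraries the log2 fold changes of the 4 were -0.53 (bta-miR-143), -0.26 (bta-miR-145), -0.93 (bta-miR-199a-5p) and -0.27 (bta-miR-199a-3p). Of all miRNAs tested, 9.63% were called lower. The summed share of the 5 was 1.83 to 3.03% in dominant and 2.16 to 3.17% in subordinate follicles. Of the epithelial miRNAs, bta-miR-200a, bta-miR-200b, bta-miR-200c and bta-miR-429 had at most 3 reads in any library, and bta-miR-141, the only one tested, had 1, 4 and 1 reads in dominant and 5, 0 and 0 in subordinate libraries and was not called (0.51, standard error 1.26, adjusted p = 0.789). The part of other cells in the levels of bta-miR-202 and of miR-22 was not tested.

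The miRNAs whose levels over the 6 libraries ran most like those of bta-miR-202 and bta-miR-22-3p were sought among 133 other miRNAs that averaged 50 reads or more, by the Euclidean distance between profiles of log2 CPM centred on their mean. For bta-miR-202 the nearest were bta-miR-204 (distance 0.47), bta-miR-450a (0.87), bta-miR-28 (0.92), bta-miR-221 (0.97) and bta-miR-22-3p (0.97), where the median distance was 2.61. For bta-miR-22-3p they were bta-miR-204 (0.69), bta-miR-202 (0.97), bta-miR-424-5p (0.98), bta-miR-873 (1.05) and bta-miR-450a (1.10), with a median of 3.43. Bta-miR-204 was thus the nearest to both, at a much lower level of 1730 reads in dominant and 490 in subordinate follicles on average. Nearness here rests mostly on the difference between follicle types, and 6 libraries do not resolve the order of distances that lie as close as 0.97 and 0.98.

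**Figure D5:**
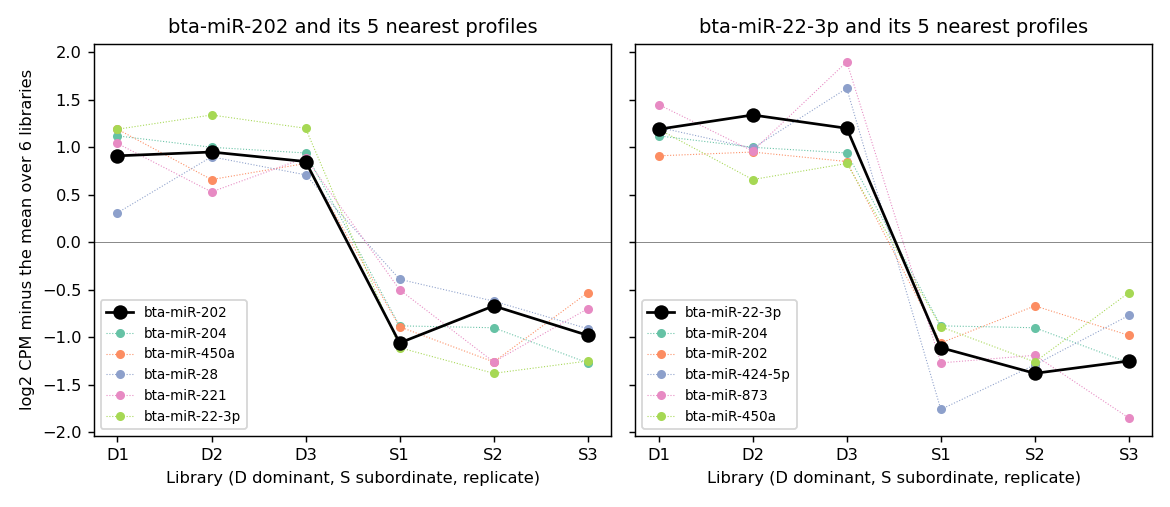
Log2 CPM minus the mean over 6 libraries (vertical axis) in each library (horizontal axis; D dominant, S subordinate, with the replicate number) for bta-miR-202 (left, black) and bta-miR-22-3p (right, black) and their 5 nearest profiles. Bta-miR-202 lies between 0.85 and 0.95 in dominant libraries and between -1.06 and -0.67 in subordinate ones, and lines join the libraries only to guide the eye.

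Other miRNAs linked to granulosa cell function went in both directions. Of 18 such miRNAs, all tested, 6 were called higher in dominant follicles, 3 lower and 9 were not called, where 11.9% of all miRNAs tested were called higher and 9.63% lower. Several of the 18 had already been reported by the study as changed in these same libraries. Nothing is therefore read from their count against these shares. Their median log2 fold change was 0.33, against -0.20 over all 353 miRNAs. The 6 were bta-miR-132 and bta-miR-212, a pair induced by luteinizing hormone, both arms of bta-miR-21, which is induced by the same hormone and protects granulosa cells from apoptosis, bta-miR-375, best known from pancreatic islets, and bta-miR-873. Bta-miR-212 had 147, 62 and 140 reads in the dominant and 1, 2 and 11 in the subordinate libraries (log2 fold change 4.73 with a standard error of 0.66, adjusted p = 0.0012 by edgeR's quasi-likelihood test). Bta-miR-375 had 7, 6 and 9 reads against 0, 1 and 0.

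For bta-miR-21-5p, a miRNA as abundant as bta-miR-22-3p in dominant follicles, the log2 fold change was 1.09 (standard error 0.41, adjusted p = 0.0956). Its call was lost in 8 alternative analyses, among them the omission of dominant replicate 1 (1.08), 2 (1.25) or 3 (0.94), or of subordinate replicate 2 (0.71) or 3 (1.10). The 3 called lower were bta-miR-92a (-1.97, standard error 0.21, adjusted p = 0.00027), a member of the proliferation-linked miR-17-92 cluster, bta-miR-378 (-1.74, 0.38, adjusted p = 0.0133), known to act on aromatase, and bta-miR-224 (standard error 0.24, adjusted p = 0.0198), induced by TGF-beta in granulosa cells. Bta-miR-224 was at 131, 148 and 124 CPM in dominant and 278, 233 and 296 CPM in subordinate libraries, a log2 fold change just past the limit of a call, which was lost with the filter of 10 reads in 3 libraries, with scaling by total count (-0.80) and without dominant replicate 1 (-0.98) or 3 (-0.96) or subordinate replicate 1 (-0.98) or 3 (-0.93). Bta-miR-34a, not called (1.19, standard error 0.48, adjusted p = 0.118), was called without dominant replicate 3 (1.46), with scaling by total count (1.42) and, at the same log2 fold change, with a filter of 10 reads in 3 libraries (adjusted p = 0.064 by edgeR's quasi-likelihood test).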

How the data were processed

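Small RNA libraries of granulosa cells were made and sequenced by the authors, 3 from preovulatory dominant and 3 from subordinate follicles. Adapter trimming and quality filtering by the authors used Cutadapt and Seqtk. Retained reads were aligned with Bowtie to bovine genome build UMD3.1, and counted on the miRNAs of miRBase with miRDeep2. The submitters' processing notes also name CASAVA 1.8.0. The deposited values are raw read counts without normalization, 906 rows per library for 755 mature names, since a mature miRNA is repeated for each precursor. Here the largest row of each name was used. The members and lists were chosen with earlier results of these data known.

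Counts were fitted with edgeR 4.0.16 (R 4.3.3), with TMM factors, a quasi-likelihood test of follicle type and Benjamini-Hochberg adjustment over 353 miRNAs, those read in 2 or more of the 3 replicates of a group. The standard error was taken as the ratio of log2 fold change to the root of the F statistic. P-values set the difference between follicle types against the spread between pools, which is not the spread between animals. The fit was also run on counts simulated with a common dispersion. That run checked the procedure only and does not bear on the reliability of the calls given here. Other steps used Python 3.11.15 (pandas 2.3.3, scipy 1.17.1, numpy 2.4.6). Named miRNAs are the members, the fixed lists, neighbours in rank, ranks 10 and 11, the 5 nearest profiles and the 3 most extreme duplexes at each end. Alternatives were DESeq2 1.42.0, other scalings, filters, precursor sums, a replicate block and each library left out. Deviations of same-numbered libraries of the 2 groups correlated at r = 0.14, 0.38 and 0.41 for numbers 1, 2 and 3 over 194 miRNAs. For different numbers r ran from -0.42 to 0.19, so that number 1 is not set apart. Whether the numbers pair the libraries is therefore not established. The main fit, with its standard errors and p-values, treated the libraries as unpaired, and the replicate block was an alternative. Mature sequences and shared seeds were not analysed here. One list of miRNAs is not reported here.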

Additional observations from a re-analysis of the deposited data

How the results depend on the processing

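The log2 fold changes of bta-miR-202, bta-miR-22-3p and bta-miR-22-5p were positive under all 42 combinations of miRNA and alternative, from 1.72 to 2.02, from 2.43 to 2.69 and from 2.96 to 4.33. Scaling by total count raised those of bta-miR-202 and bta-miR-22-3p to 2.02 and 2.69, and moved the median of all miRNAs by 0.20. Leaving out single libraries gave 2.96 to 4.33 for bta-miR-22-5p. With the replicate block the values were 1.80, 2.49 and 3.27, 38 miRNAs were called higher and 33 lower, and no call in the fixed lists changed. Leaving out single libraries gave 22 to 38 miRNAs called lower, fewest without dominant replicate 1.

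Counting repeated precursor rows in the denominator lowered the shares to 3.62 and 0.862% for bta-miR-202 and 2.59 and 0.387% for bta-miR-22-3p in dominant and subordinate follicles, and without bta-miR-26a and bta-miR-10b they were 6.96, 2.08, 4.98 and 0.923%, by construction. With summed precursor rows bta-miR-202 was 5th by mean reads in dominant follicles instead of 3rd, and bta-miR-22-3p 30th in subordinate follicles instead of 27th. Leaving out single subordinate libraries gave places 15 to 17 and 26 to 30. The seed-sharing list was not run. With at least 5 reads in both arms, 14 duplexes remained of 34. Depth limits the 5p arm of miR-22, with 7 reads in subordinate follicles.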
